A study of Mus musculus with 8 samples.

Results

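Described here are the loci of the nuclear-encoded subunits of the mitochondrial respiratory chain in mouse liver, in mice given IUB288 or vehicle. The loci were chosen by gene name (Ndufa, Ndufb, Ndufc, Ndufs or Ndufv with a number, Sdha to Sdhd, and names that begin with Uqcr, with Cox4 to Cox8, or with Atp5). No fold change enters that rule, but the set was chosen with earlier results of these data known. Such a name was carried by 84 of the 26682 loci in the deposited tables, and the 79 with at least 1 FPKM (fragments per kilobase of transcript, scaled to the mapped fragments of a library) in any group were kept. By name 37 of the 79 belong to complex I, 4 to complex II, 8 to complex III, 13 to complex IV and 17 to complex V. The 5 loci below the limit are isoforms of cytochrome c oxidase subunits, and their highest FPKM in any group was 0.320 for Cox8b, 0.215 for Cox4i2, 0.187 for Cox6a2 and 0 for Cox7b2 and Cox8c. Just above the limit stood Cox6b2 at 1.87, Ndufa4l2 at 2.72 and Atp5s at 5.64 FPKM.

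The 8 mice, of C57Bl/6J background, formed 4 groups of 2, and all had fasted for 2 h before their livers were taken. The groups were KO mice given IUB288, KO mice given vehicle, WT mice given IUB288 and WT mice given vehicle. IUB288 is a glucagon receptor agonist. KO is the labels' word, and Fxr is the gene that the design describes as floxed; the Cre line, the deleted exon and the tissue of the deletion are not given in the sources used here. The protocol mentions both a high-fat and a chow diet without tying either to a mouse, so diet and group cannot be told apart. For each locus the deposited tables hold 1 pooled FPKM per group, with nothing for single mice. Values after ± are therefore the standard errors implied by the authors' test statistics on the log2 scale, depth per library is unknown, and whether the groups overlap mouse by mouse cannot be seen. The gene Nr1h4, which encodes FXR, had 25.7 FPKM in KO livers and 37.4 FPKM in WT livers under IUB288, and the authors' deposited table puts the difference at -0.54 ± 0.41 on the log2 scale (q = 1.00); a value summed over the locus says nothing about single exons.

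The respiratory chain sits in the inner mitochondrial membrane. Complex I takes electrons from NADH and complex II from succinate, complex III passes them to cytochrome c, and complex IV, cytochrome c oxidase, hands them to oxygen. Complexes I, III and IV pump protons, and complex V, the ATP synthase, uses the gradient to make ATP. In liver this ATP pays for costly work such as glucose and urea synthesis, both of which glucagon raises. All complexes but complex II also hold subunits encoded in mitochondrial DNA, so nuclear and mitochondrial gene products must be built together.

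Respiratory chain transcripts were among the abundant ones of these livers. Of the 79 loci, 56 exceeded 100 FPKM in each of the 4 groups, and 3 stayed under 10 FPKM in every group. The highest was Uqcrq, a small subunit of complex III, with 944 FPKM in KO livers given IUB288, 748 in KO livers given vehicle, 1216 in WT livers given IUB288 and 864 in WT livers given vehicle. Cox4i1, the general form of subunit 4 of cytochrome c oxidase, stood at 932 FPKM in KO livers given IUB288, 594 in KO livers given vehicle, 1149 in WT livers given IUB288 and 675 in WT livers given vehicle. Atp5b, the catalytic beta subunit of the ATP synthase, stood at 785 FPKM in KO livers given IUB288, 540 in KO livers given vehicle, 933 in WT livers given IUB288 and 545 in WT livers given vehicle. The highest value of complex II in any group was 250 FPKM for Sdhd in WT livers given IUB288, while other complex II loci stood above Sdhd in the other 3 groups. Among the loci named for complex I the highest was 794 FPKM for Ndufa4, also in WT livers given IUB288. The Ndufa4 protein was later assigned to complex IV, and it is counted here under complex I by its name alone. Complex I loci were lower as a set, with a median of 120 FPKM in KO livers given IUB288 and 102 in KO livers given vehicle, against 157 in WT livers given IUB288 and 114 in WT livers given vehicle. Complex V loci had medians of 374 FPKM with IUB288 and 265 with vehicle in KO, and 471 with IUB288 and 287 with vehicle in WT.

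**Figure D1:**
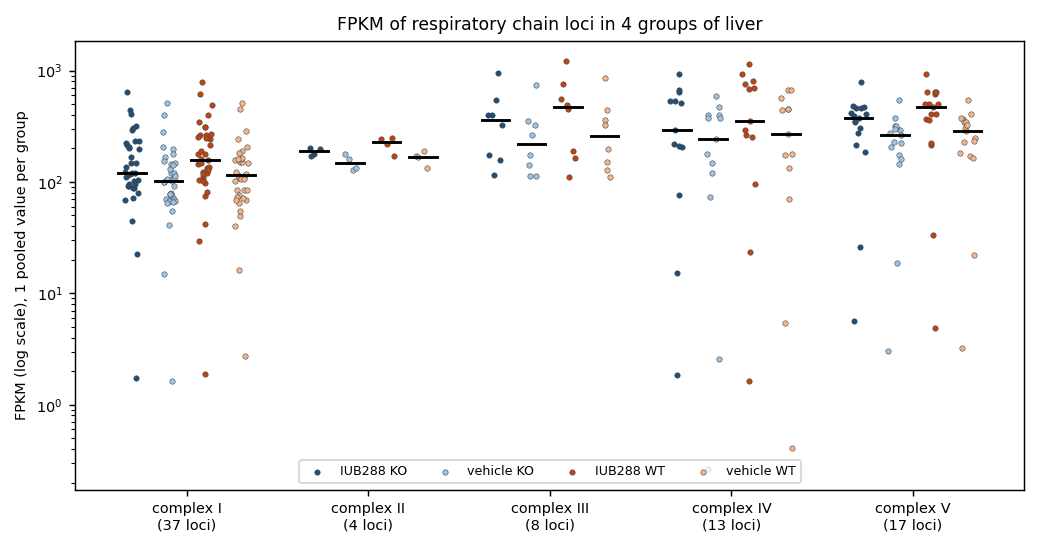
Pooled FPKM (log scale) of the 79 respiratory chain loci by complex in 4 groups of mouse liver; each point is 1 locus in 1 group and each bar the median over the loci. In each complex the median was higher with IUB288 than with vehicle of the same genotype, for example 374 against 265 FPKM in KO and 471 against 287 FPKM in WT for complex V, and 3 loci lie under 10 FPKM in every group.

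With IUB288 a minority of these loci rose past the test, and none fell. In KO livers 7 of 79 rose and 0 fell at q under 0.05 in the authors' deposited table, 8.86% of the loci against 3.13% called higher and 2.37% called lower among the 13822 loci tested. In WT livers 14 of 79 rose and 0 fell in the authors' deposited table, 17.7% against 3.96% called higher and 3.4% called lower among the 15164 loci tested. At an unadjusted p under 0.05 the authors' deposited tables had 28 loci higher in KO and 42 higher in WT, and 0 lower in either. The share of all tested loci at that unadjusted threshold is not given here, so these counts have no baseline. The fold changes lay above 0 for 77 of the 79 in KO and for 77 of the 79 in WT, against 49.8% of all tested loci in KO and 52.2% in WT, and 76 were above 0 in both. The median log2 fold change was 0.45 in KO and 0.63 in WT, beside 0.00 in KO and 0.03 in WT over all tested loci.

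Abundant transcripts as a class had higher fold changes in these tables, so each locus was set beside the 200 other tested loci nearest to it in FPKM. In KO 8.86% of the respiratory chain was called higher, beside 7.17% of the like loci. In WT 17.7% of the respiratory chain was called higher, near the 17.3% of the like loci, so the count of calls does not set the respiratory chain apart. The median log2 fold change of like loci was 0.17 in KO and 0.35 in WT. Taken locus by locus, the respiratory chain stood above its like loci by a median of 0.31 in KO, with 72 of 79 above, and by 0.16 in WT, with 57 of 79 above. These are descriptions: the loci are not independent replicates, and no test was made of them as a set.

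Spliced length was looked at next, a choice made after the values were seen. Respiratory chain transcripts are short, with a median of 861 bases and a range from 371 to 3171, against a median of 1739 bases among other loci over 50 FPKM in the WT table. In WT the median log2 fold change of the respiratory chain loci was 0.74 up to 600 bases, 0.64 from 600 to 900, 0.61 from 900 to 1500 and 0.51 beyond. The other loci over 50 FPKM in the same length classes had WT medians of 0.71, 0.69, 0.41 and 0.22. The respiratory chain thus lay near other loci in the shorter classes and above them in the longer ones. In KO the respiratory chain medians were 0.51, 0.49, 0.45 and 0.44, against 0.39, 0.36, 0.25 and 0.07 for other loci. Against 200 loci alike in both FPKM and length, the respiratory chain stood higher by a median of 0.23 in KO, with 65 of 79 above, and by 0.08 in WT, with 48 of 79 above. What underlies the difference with length was not tested.

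**Figure D2:**
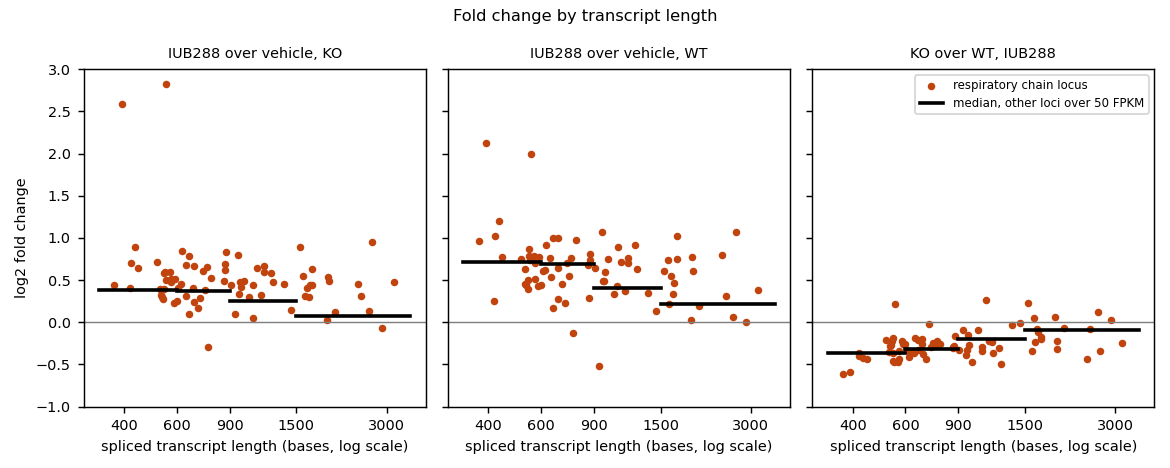
Log2 fold change of each of the 79 respiratory chain loci (points) against its spliced transcript length in bases (log scale), with the median of other loci over 50 FPKM in 4 length classes (bars), for IUB288 over vehicle in KO, IUB288 over vehicle in WT, and KO over WT under IUB288. In WT the bars step down from 0.71 in the shortest class to 0.22 in the longest, and most longer respiratory chain loci lie above their bar.

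**Figure D3:**
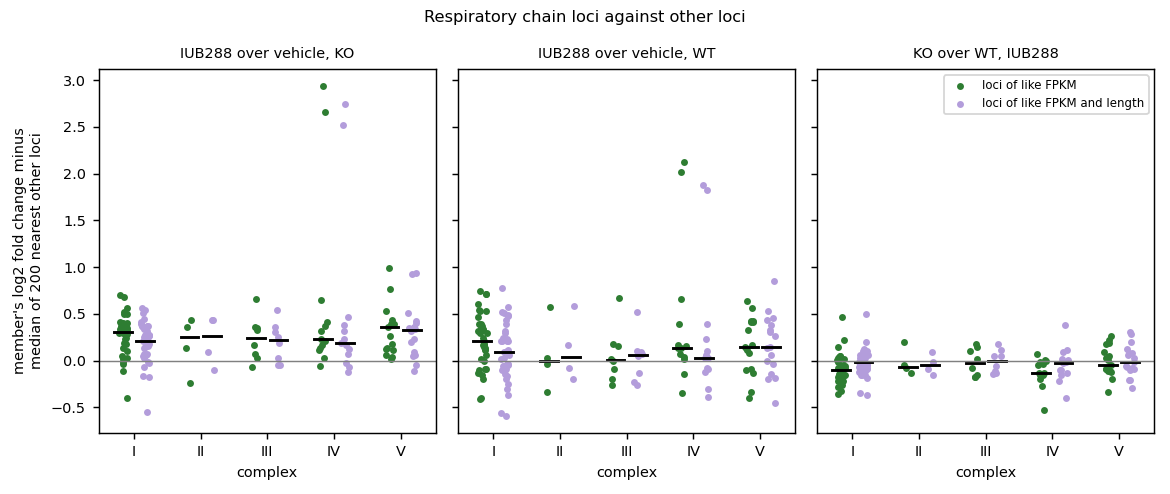
Log2 fold change of each respiratory chain locus minus the median of the 200 other tested loci nearest in FPKM (green) or nearest in FPKM and spliced length (violet), by complex; bars are medians over the loci. Over all 79 loci the median is 0.31 and 0.23 in KO, 0.16 and 0.08 in WT, and -0.08 and -0.02 for KO over WT under IUB288.

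Complex I has a core that carries flavin, iron-sulphur clusters and the quinone site, and many accessory subunits around it. Of its 37 loci 2 rose in KO and 5 in WT, none fell, and the median log2 fold change was 0.45 in KO and 0.63 in WT. The calls make up 5.41% of the complex I loci in KO and 13.5% in WT. Among loci of like FPKM 6.42% were called higher in KO and 14.04% in WT, so the count of calls does not set complex I apart. All 6 complex I loci called in either genotype encode accessory subunits, which make up 28 of the 37. Ndufb7, an accessory subunit of the membrane arm, had 236 FPKM in KO livers given IUB288, against 131 in KO livers given vehicle. In WT it had 311 FPKM with IUB288, against 165 with vehicle. Its log2 fold change was 0.85 ± 0.35 in KO (q = 0.0122) and 0.92 ± 0.39 in WT (q = 0.0214) in the authors' deposited tables, so it rose in both genotypes.

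The other complex I calls passed the threshold in 1 genotype. Ndufa5, an accessory subunit of the matrix arm, had 214 FPKM with IUB288 and 121 with vehicle in KO, and 245 with IUB288 and 147 with vehicle in WT. The authors' deposited tables give it 0.83 ± 0.36 in KO (q = 0.025) and 0.74 ± 0.39 in WT (q = 0.073), nearly the same size. Ndufs4, an accessory subunit next to the NADH-oxidising module whose loss causes a Leigh-like disease in mice, had 95.3 FPKM with IUB288 and 70.0 with vehicle in KO, and 112 with IUB288 and 55.0 with vehicle in WT. Its log2 fold change was 0.45 ± 0.42 in KO (q = 0.543) and 1.02 ± 0.47 in WT (q = 0.0316) in the authors' deposited tables, the highest of complex I in WT. The membrane arm subunits Ndufc1, Ndufb5 and Ndufa11 had 0.97, 0.89 and 0.86 in WT (q = 0.0267, 0.0247 and 0.0321), and 0.53, 0.45 and 0.58 in KO without a call, in the authors' deposited tables.

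The 7 core subunits of complex I had medians of 0.42 in KO and 0.55 in WT, and 0 of 7 was called in either. The 28 accessory subunits had 0.46 in KO and 0.66 in WT. Among loci like the core in FPKM, 5.79% were called higher in KO and 11.1% in WT. Against loci alike in FPKM and length, the core stood higher by a median of 0.32 in KO and 0.21 in WT. The accessory subunits stood higher by 0.23 in KO and 0.08 in WT. This grouping was made after the values were seen. Among the core, Ndufv2 and Ndufv1 of the NADH-oxidising module had 0.63 and 0.44 in KO and 0.75 and 0.47 in WT in the authors' deposited tables. Ndufs8, which carries iron-sulphur clusters on the way to the quinone site, had 0.42 ± 0.36 in KO and 0.59 ± 0.40 in WT in the authors' deposited tables. Ndufs1, the largest of the core subunits, had 44.8 FPKM with IUB288 and 41.0 with vehicle in KO, and 42.0 with IUB288 and 40.0 with vehicle in WT. Ndufs7, which carries the last iron-sulphur cluster before quinone, had 0.62 ± 3.62 in KO and 0.81 ± 3.92 in WT in the authors' deposited tables. Its locus is listed with the same span as 48 loci in all, among them Atp5d, the delta subunit gene of the ATP synthase, whose errors were 1.81 in KO and 1.76 in WT. Ndufb3, an accessory subunit of the membrane arm, had the lowest value of complex I in KO, -0.29 ± 0.36 there and -0.12 ± 0.40 in WT in the authors' deposited tables. Ndufa4l2, a low-level relative of Ndufa4 with 1.74 FPKM with IUB288 and 1.63 with vehicle in KO and 1.90 with IUB288 and 2.72 with vehicle in WT, had an error above 4 on the log2 scale in both.

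**Figure D4:**
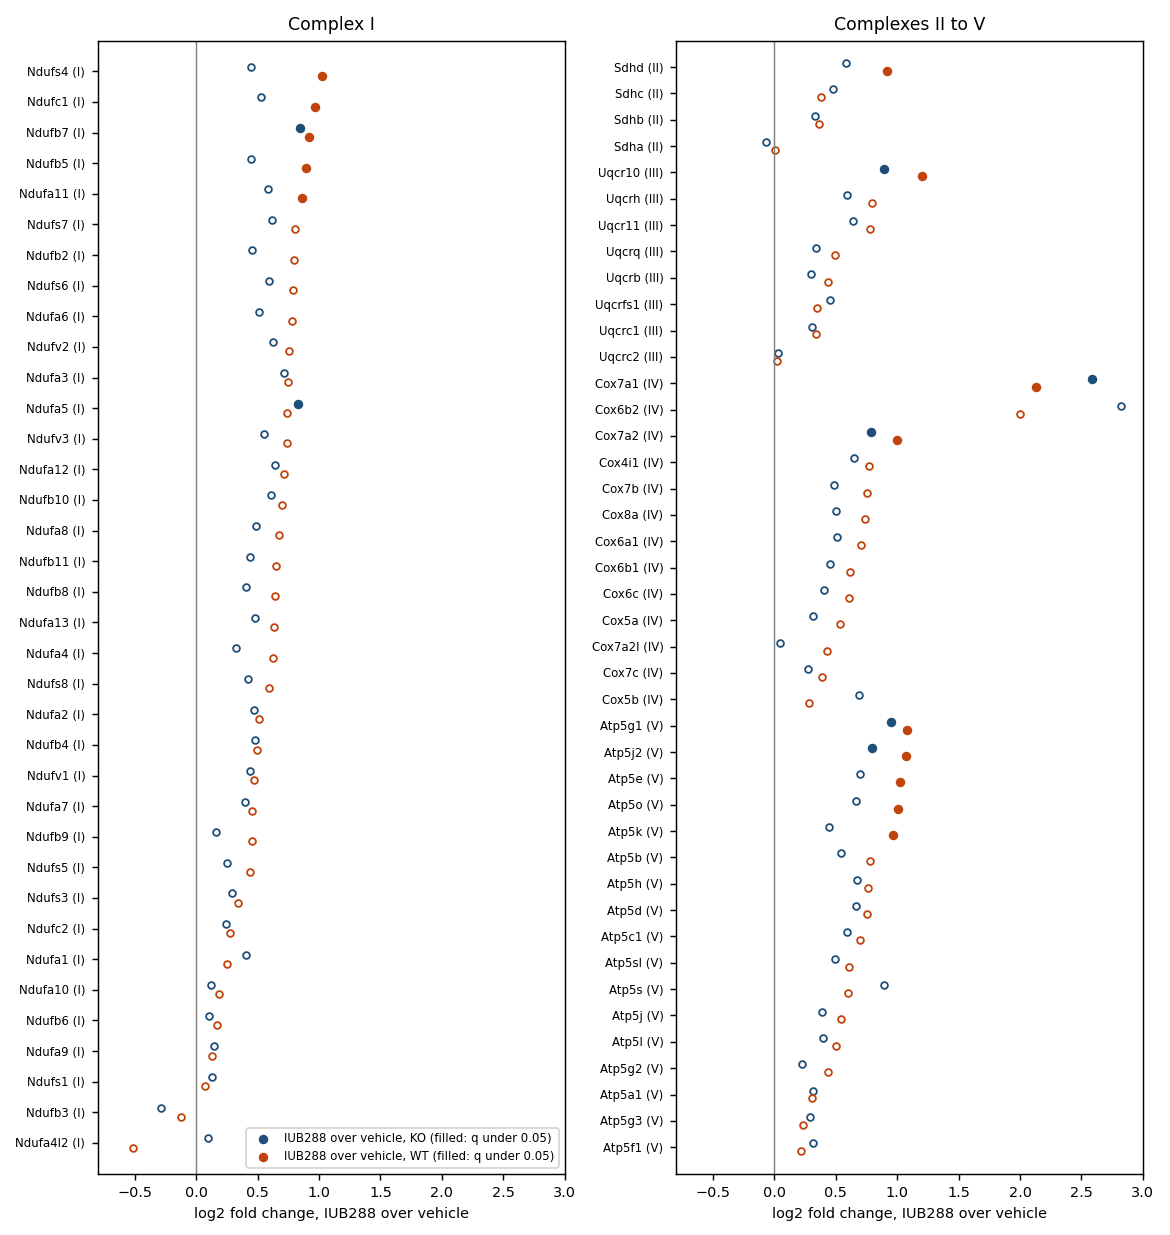
Log2 fold change of IUB288 over vehicle for respiratory chain loci by name, all but 1 of the 79, complex I on the left and complexes II to V on the right, with KO in blue above WT in orange and filled points where q is under 0.05 in the authors' deposited tables. The 7 filled points in KO and the 14 in WT are all to the right of 0, and 6 loci (Ndufb7, Uqcr10, Cox7a1, Cox7a2, Atp5g1 and Atp5j2) are filled in both.

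Complex II, succinate dehydrogenase, belongs to both the chain and the tricarboxylic acid cycle and is encoded by nuclear genes alone. The catalytic flavoprotein gene Sdha stood at 170 FPKM with IUB288 and 178 with vehicle in KO, and at 170 with IUB288 and 169 with vehicle in WT. Its log2 fold change was -0.07 ± 0.40 in KO and 0.01 ± 0.44 in WT in the authors' deposited tables, among the 4 lowest of all 79 loci in both. The membrane anchor gene Sdhd had 198 FPKM with IUB288 and 132 with vehicle in KO, and 250 with IUB288 and 132 with vehicle in WT. The authors' deposited tables give Sdhd 0.58 ± 0.37 in KO (q = 0.214) and 0.92 ± 0.40 in WT (q = 0.0241), the 1 call of complex II. The iron-sulphur subunit Sdhb had 0.33 in KO and 0.37 in WT, and the other anchor, Sdhc, 0.48 in KO and 0.38 in WT, in the authors' deposited tables, without a call.

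In complex III the small subunits had higher medians than the large ones. The 5 small subunits (Uqcrb, Uqcrq, Uqcrh, Uqcr10 and Uqcr11) had a median log2 fold change of 0.59 in KO and 0.77 in WT. The core proteins Uqcrc1 and Uqcrc2 and the Rieske iron-sulphur protein Uqcrfs1 had medians of 0.31 in KO and 0.34 in WT. Uqcr10, one of the small subunits, had 327 FPKM with IUB288 and 176 with vehicle in KO, and 452 with IUB288 and 196 with vehicle in WT. It rose by 0.89 ± 0.36 in KO (q = 0.00989) and by 1.20 ± 0.40 in WT (q = 0.00163) on the log2 scale in the authors' deposited tables, the smallest WT q of the 79 loci. Uqcrc2 had 114 FPKM with IUB288 and 112 with vehicle in KO, and 112 with IUB288 and 110 with vehicle in WT. Uqcrc1 had 0.31 in KO and 0.34 in WT, and Uqcrfs1 0.45 in KO and 0.35 in WT, in the authors' deposited tables, without a call. The grouping into small and core subunits was made after the values were seen, and the small ones are also the shorter and more abundant transcripts. Against loci alike in FPKM and length, the small subunits stood higher by a median of 0.25 in KO and 0.08 in WT. The core subunits stood higher by 0.19 in KO and 0.05 in WT.

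In complex IV, 2 isoforms present at low levels, Cox6b2 and Cox7a1, had the highest fold changes of the 79 loci in KO, and only Cox7a1 was called. Cox6b2 reached the limit of 1 FPKM in the IUB288 groups alone, so the choice of loci favours its rank. Cox7a1 encodes the form of subunit 7a typical of heart and skeletal muscle, and Cox7a2 the form used in liver and most other tissues. Cox7a1 stood at 15.3 FPKM with IUB288 and 2.56 with vehicle in KO, and at 23.7 with IUB288 and 5.43 with vehicle in WT. It rose in both genotypes, 6.00-fold in KO (log2 2.58 ± 0.79, q = 0.0132) and 4.37-fold in WT (log2 2.13 ± 0.66, q = 0.00301) in the authors' deposited tables. Cox7a2 also rose in both, at a higher level: it had 207 FPKM with IUB288 and 120 with vehicle in KO, and 264 with IUB288 and 132 with vehicle in WT. The authors' deposited tables give Cox7a2 0.79 ± 0.36 in KO (q = 0.0413) and 1.00 ± 0.39 in WT (q = 0.00757). Cox7a2l, which is counted here by its name and encodes no subunit of complex IV alone, had 0.05 in KO and 0.43 in WT in the authors' deposited tables.

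Markers of striated muscle, where Cox7a1 is abundant, were read beside it, and their part in its values was not tested. Of the 6 markers Ckm was listed at 0 in all groups, and the summed FPKM of the list was 1.26 with IUB288 and 0.680 with vehicle in KO, and 3.16 with IUB288 and 1.14 with vehicle in WT. Nearly all of it was Mylpf, a myosin light chain of fast muscle, with 1.22 FPKM with IUB288 and 0.652 with vehicle in KO, and 3.11 with IUB288 and 1.14 with vehicle in WT. Mylpf had 0.90 ± 0.96 in KO (q = 0.538) and 1.45 ± 0.78 in WT (q = 0.0864) in the authors' deposited tables. Brown adipocytes also express Cox7a1, and their defining gene Ucp1 was at most 0.0195 FPKM. The 4 adipocyte markers summed to 0.167 FPKM with IUB288 and 0.0549 with vehicle in KO, and to 0.569 with IUB288 and 2.46 with vehicle in WT. Nearly all of the WT sum was Cidea, with 0.549 FPKM with IUB288 and 2.42 with vehicle, and its part in the Cox7a1 values was not tested. The other muscle forms of cytochrome c oxidase subunits, Cox6a2 and Cox8b, were at no more than 0.187 and 0.320 FPKM in any group, and Cox4i2, the lung form of subunit 4, at no more than 0.215 FPKM.

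Cox6b2, known as the testis form of subunit 6b, had the highest fold change in KO. It stood at 1.87 FPKM with IUB288 and 0.263 with vehicle in KO, and at 1.65 with IUB288 and 0.412 with vehicle in WT. Its log2 fold change was 2.83 ± 1.62 in KO (q = 0.31) and 2.00 ± 1.18 in WT (q = 0.246) in the authors' deposited tables, so it did not pass. It reached the limit of 1 FPKM in the IUB288 groups and in neither vehicle group, so the choice of loci itself favours a high fold change here. Its general partner Cox6b1 had 509 FPKM with IUB288 and 372 with vehicle in KO, and 693 with IUB288 and 452 with vehicle in WT, with no call. The general subunits of complex IV, 11 loci with Ndufa4 among them, had a median log2 fold change of 0.49 in KO and 0.63 in WT, and all 11 were above 0 in both. Cox5b, a zinc-binding subunit, was 1 of the 15 loci of the respiratory chain with a larger value in KO, 0.69 ± 0.45 there and 0.29 ± 0.46 in WT, and Cox5a had 0.31 in KO and 0.53 in WT, in the authors' deposited tables.

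**Figure D5:**
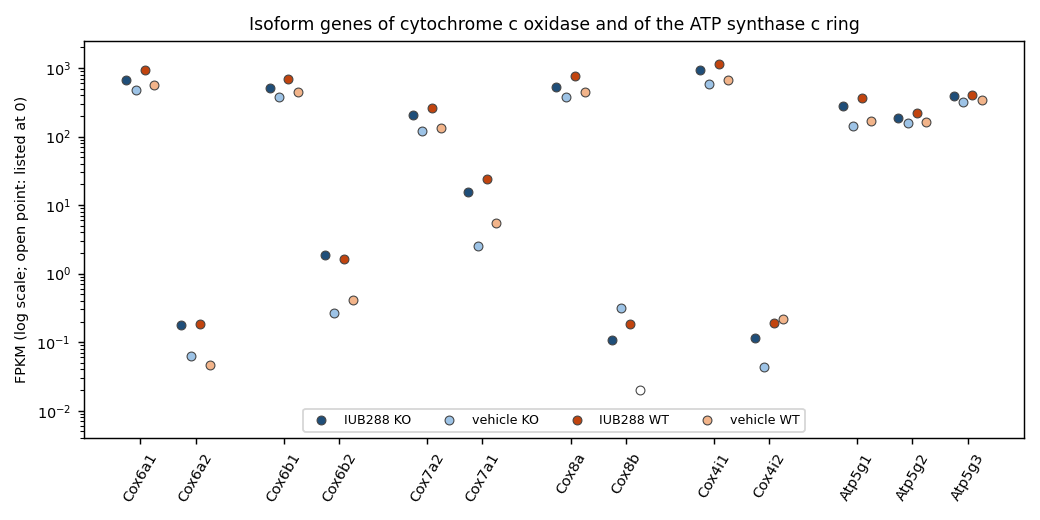
Pooled FPKM (log scale) in 4 groups for isoform genes of cytochrome c oxidase subunits and for the 3 genes of the c subunit of the ATP synthase; the open point marks Cox8b, listed at 0 in WT livers given vehicle. Cox7a1 has 15.3 with IUB288 against 2.56 with vehicle in KO and 23.7 against 5.43 in WT, while Cox4i2, Cox6a2 and Cox8b stay under 1 FPKM.

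Of the 17 loci named for complex V, 2 rose in KO and 5 in WT, and none fell. That is 11.8% in KO and 29.4% in WT, beside 7.94% and 22.9% called higher among loci of like FPKM. The median log2 fold change was 0.54 in KO and 0.70 in WT. The c subunits form the rotating ring in the membrane, and Atp5g1, Atp5g2 and Atp5g3 encode the same mature protein behind different import sequences. Atp5g1 had 278 FPKM with IUB288 and 144 with vehicle in KO, and 360 with IUB288 and 171 with vehicle in WT. It rose by 0.95 ± 0.37 in KO (q = 0.00761) and 1.08 ± 0.40 in WT (q = 0.00433) on the log2 scale in the authors' deposited tables. Atp5g2 had 0.23 ± 0.36 in KO and 0.43 ± 0.39 in WT, and Atp5g3 0.29 ± 0.37 in KO and 0.23 ± 0.40 in WT, in the authors' deposited tables, without a call. Atp5g3 was the most abundant of the 3 in each group, with 391 FPKM with IUB288 and 320 with vehicle in KO, and 407 with IUB288 and 346 with vehicle in WT. The 3 genes were not tested against each other.

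The other complex V call in both genotypes was Atp5j2, which encodes the membrane subunit f. It had 475 FPKM with IUB288 and 273 with vehicle in KO, and 638 with IUB288 and 303 with vehicle in WT. The authors' deposited tables give it 0.80 ± 0.36 in KO (q = 0.0283) and 1.07 ± 0.40 in WT (q = 0.00433). Atp5e, the small epsilon subunit of the catalytic head, and Atp5o, which ties the head to the peripheral stalk, had 1.03 ± 0.39 (q = 0.0122) and 1.00 ± 0.40 (q = 0.00757) in WT in the authors' deposited table. In KO they had 0.70 ± 0.36 (q = 0.0879) and 0.66 ± 0.36 (q = 0.106) in the authors' deposited table. Atp5k, the membrane subunit e at which the enzyme dimerises, had 406 FPKM with IUB288 and 299 with vehicle in KO, and 637 with IUB288 and 325 with vehicle in WT. Its log2 fold change was 0.44 ± 0.36 in KO (q = 0.428) and 0.97 ± 0.40 in WT (q = 0.0186) in the authors' deposited tables.

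The large subunits of the catalytic head were not called. Its alpha subunit gene Atp5a1 had 0.32 ± 0.43 in KO and 0.31 ± 0.48 in WT, the beta subunit gene Atp5b 0.54 ± 0.44 in KO and 0.78 ± 0.48 in WT, and the gamma subunit gene Atp5c1 0.59 ± 0.38 in KO and 0.70 ± 0.42 in WT, in the authors' deposited tables. Atp5f1, a part of the peripheral stalk, had the lowest WT value of the complex, 0.31 ± 0.39 in KO and 0.22 ± 0.42 in WT in the authors' deposited tables. Atp5s and Atp5sl match the name rule but encode no subunit, and had 0.89 ± 0.49 and 0.49 ± 0.94 in KO and 0.60 ± 0.52 and 0.60 ± 1.02 in WT in the authors' deposited tables.

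The KO livers given IUB288 had lower respiratory chain values than the WT livers given IUB288, and no locus passed. In the authors' deposited table of that comparison 0 of 79 loci were called, where 0.323% of the 13918 loci tested were called higher and 0.216% lower, and 1 had an unadjusted p under 0.05. That 1 was Atp5k, the lowest of the 79, with -0.61 (q = 0.974) in the authors' deposited table. Fold changes lay below 0 for 72 of the 79 loci and for 52.2% of all tested loci, and their median was -0.27, beside -0.01 over all tested loci. Loci of like FPKM had a median of -0.18, and loci alike in FPKM and length -0.25, and the median gap of the respiratory chain to the last was -0.02. The highest values were 0.26 for Ndufa12, 0.23 for Atp5s and 0.22 for Cox6b2, and the lowest after Atp5k were -0.59 for Cox7a1, -0.49 for Ndufa13 and -0.47 for Cox8a, in the authors' deposited table. This comparison uses the same IUB288 groups as the comparisons with vehicle, so its values are not independent of theirs.

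Whether IUB288 acted differently in KO and WT was tested for each locus, as the KO minus the WT log2 fold change, from the deposited fold changes and their implied errors. Of the 79 loci 0 were called and 0 had an unadjusted p under 0.05, beside 0.104% called among the 13521 loci testable in both tables. Over all these loci only 1.08% had an unadjusted p under 0.05, so a count of 0 among 79 says little. A normal test is also stricter here than the authors' test. Applied to the deposited statistics of each genotype, it called 0 of the 79 loci in KO, in place of 7, and 1 in WT, in place of 14. The difference was below 0 for 64 of 79 loci, with a median of -0.13, beside -0.04 over all loci and -0.15 over loci of like FPKM. The smallest p-values belonged to Atp5k, with a difference of -0.53 ± 0.54, Ndufs4, with -0.58 ± 0.63, and Ndufb5, with -0.44 ± 0.53. Each had an adjusted p of 1.00 in this normal test with Benjamini-Hochberg adjustment over all loci. The 8 loci past the threshold in WT but not in KO, and Ndufa5 with the reverse, are thus not shown to differ between the genotypes. With 2 mice per group the errors are wide, and a p that misses the threshold does not show that the effects are alike.

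Under vehicle the 2 genotypes appear in separate tables, so their levels carry no test. After rescaling by the IUB288 groups that the tables share, 66 of the 79 loci were lower in KO than in WT, with a median ratio of 0.924. The 4060 tested loci above 10 FPKM in both vehicle groups, the respiratory chain included, had a median ratio of 1.03. They were not matched to the respiratory chain in FPKM or length, so the gap may follow from either. Cox7a1 had 2.56 FPKM in KO and 5.43 in WT, and Cox5b 400 FPKM in KO and 664 in WT, as deposited. Ndufa12 and Ndufs4 went the other way, with 196 FPKM in KO and 160 in WT, and 70.0 in KO and 55.0 in WT.

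Neighbouring pathways were read from lists of genes that work with the chain, which were not set beside loci of like FPKM. Among all tested loci 3.13% were called higher and 2.37% lower in KO, and 3.96% higher and 3.4% lower in WT. Of the 13 complex I assembly factors 0 were called in either genotype, with a median log2 fold change of -0.16 in KO and 0.20 in WT. Of the 23 assembly factors of the other complexes 1 fell in KO and 0 were called in WT, with medians of -0.07 in KO and 0.29 in WT. The 1 was Cox18, which inserts a mitochondrially made subunit into the membrane, with -1.36 ± 0.46 in KO (q = 0.00189) and -0.79 ± 0.48 in WT (q = 0.151) in the authors' deposited tables. Of 18 electron carriers and other chain genes 0 were called in either, with medians of 0.17 in KO and 0.39 in WT. Among them Cyc1, the cytochrome c1 subunit of complex III whose name the rule does not match, had 0.48 ± 0.36 in KO and 0.70 ± 0.40 in WT, and cytochrome c itself, Cycs, 0.38 ± 0.36 in KO and 0.78 ± 0.40 in WT, in the authors' deposited tables. Of 18 tricarboxylic acid cycle genes 3 rose in KO and 4 in WT and none fell, with medians of 0.11 in KO and 0.26 in WT. Fh1, the fumarase that acts just after complex II in the cycle, rose by 1.94 ± 0.38 in KO (q = 0.00189) and 1.98 ± 0.41 in WT (q = 0.00163) on the log2 scale in the authors' deposited tables. Mdh2 and Ogdh rose in both. Idh3a had 0.43 ± 0.36 in KO (q = 0.467) and rose by 1.35 ± 0.40 in WT (q = 0.00163) in the authors' deposited tables, and the difference, KO minus WT, was -0.93 ± 0.54 (adjusted p = 1.00 in the normal test). Of 21 mitochondrial import genes 1, the matrix chaperone Hspa9, rose in each genotype. Log2 fold changes of the import genes lay above 0 for 18 of 21 in KO and all 21 in WT, with medians of 0.21 and 0.49. Of 9 tested genes of mitochondrial carriers and uncoupling 0 were called in either, with medians of 0.23 in KO and 0.25 in WT.

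Few regulators of nuclear chain genes were called. Of the 14 tested, 1 rose and 1 fell in KO, and 0 rose and 1 fell in WT. Ppargc1a, a coactivator of mitochondrial biogenesis, had 3.53 FPKM with IUB288 and 1.59 with vehicle in KO, and 3.91 with IUB288 and 3.69 with vehicle in WT. It rose by 1.15 ± 0.41 in KO (q = 0.00879) and had 0.08 ± 0.43 in WT (q = 0.942) in the authors' deposited tables, and the difference, KO minus WT, was 1.07 ± 0.60 (adjusted p = 1.00 in the normal test). Ppara, a nuclear receptor for fatty acids, fell by 0.83 ± 0.39 in KO (q = 0.0463) and by 1.19 ± 0.41 in WT (q = 0.00163) in the authors' deposited tables. The factors Nrf1 and Gabpa had -0.24 ± 0.46 and -0.22 ± 0.87 in KO and 0.04 ± 0.50 and -0.40 ± 1.19 in WT in the authors' deposited tables. Tfam, which packages and transcribes mitochondrial DNA, had 0.01 ± 0.36 in KO and 0.13 ± 0.40 in WT in the authors' deposited tables, and of the 14 tested genes of mitochondrial DNA maintenance 0 were called in KO and 1, Mterfd3, fell in WT.

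The chain subunits encoded in mitochondrial DNA, a list added after the values were seen, had log2 fold changes above 0 in all 10 tested in KO and all 9 tested in WT, with wide errors. The implied standard errors were from 0.44 to 102 in KO and from 0.48 to 90.4 in WT on the log2 scale, the widest for mt-Nd1, so no median is given. Of these 0 were called in KO and 1 in WT, mt-Nd3 of complex I, with 1.10 ± 0.48 (q = 0.0241) in the authors' deposited table. mt-Co1 is listed at 0 in WT livers given vehicle and at 11974 FPKM in KO livers given vehicle. Its status in the WT comparison is LOWDATA in place of OK, so the 0 may be a failed estimate, and it has no WT value.

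Other cell types moved in these samples too, and their part in the respiratory chain values was not tested. In bulk liver, fewer cells of a type and less RNA per cell cannot be told apart. Over all tested loci 3.13% were called higher and 2.37% lower in KO, and 3.96% higher and 3.4% lower in WT. For KO over WT under IUB288 the shares were 0.323% higher and 0.216% lower. Of 7 stellate cell and fibroblast markers 1 fell in KO and 5 fell in WT, with summed FPKM of 67.0 with IUB288 and 76.5 with vehicle in KO and 58.2 with IUB288 and 110 with vehicle in WT. Of 6 macrophage markers 0 were called in KO and 1 rose in WT. Their summed FPKM was 46.4 with IUB288 and 54.6 with vehicle in KO, and 120 with IUB288 and 75.7 with vehicle in WT. Under IUB288 3 of these markers were lower in KO than in WT, with summed FPKM of 44.1 in KO and 111 in WT. Among the 6 hepatocyte markers found, Alb, which encodes albumin, had 9284 FPKM with IUB288 in KO and 9581 with IUB288 in WT. It is listed at 0 in both vehicle groups, with the status LOWDATA in place of OK in both comparisons with vehicle. The 0 may be a failed estimate and was not tested, so the list is given no sum. Of the 5 tested, 1 rose and 2 fell in KO and 2 fell in WT, the 2 being Cyp2e1 and Apoa1 in both. Of 6 endothelial markers 0 were called in KO and 1 fell in WT, and 0 cholangiocyte markers were called in either. Of 4 red cell genes found, 0 were called for IUB288 in either genotype and 3 were higher in KO than in WT under IUB288, of which Hba-a1 and Hba-a2 carry identical values.

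Promoters of nuclear chain genes often hold sites for NRF1 and for ETS-family factors such as GABP, so RefSeq promoters of build GRCm38.p6, from 250 bases before to 50 after the annotated start, were searched on both strands for 5 letter motifs. The 5 were kept from a larger number of spellings whose counts in these promoters had been seen, so their shares are a description and support nothing. Promoters were matched for 64 of the 79 loci. The NRF1-type letters GCGCANGCG occurred in 14 of 64 (21.9%), against 10.9% of 993 other genes over 50 FPKM in the WT table and 5.86% of all 27025 genes with a promoter. The ETS-type letters CCGGAAG occurred in 12 of 64 (18.8%), against 13.0% and 7.83%. The CRE letters TGACGTCA, bound by CREB downstream of cAMP, occurred in 4 of 64 (6.25%), against 2.32% and 1.77%. The YY1-type letters AAGATGGCG and the ERR-type letters TCAAGGTCA occurred in 1 of 64 each. Loci with the NRF1-type letters had a median log2 fold change of 0.50 in KO and 0.70 in WT, and those without had 0.47 in KO and 0.71 in WT. With the ETS-type letters the medians were 0.55 in KO and 0.73 in WT, and without them 0.48 in KO and 0.70 in WT. With the CRE letters they were 0.45 in KO and 0.57 in WT, over 4 loci, and without them 0.49 in KO and 0.70 in WT.

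The 160 bases before the RefSeq start are shown for 5 genes, read 5′ to 3′ along the gene, with matched motif letters in capitals. The deposited loci of Uqcr10 (to base 4704357) and Ndufb7 (from base 83566738) reach into their windows. The Ndufb7 match lies in that overlap. Uqcr10, Cox7a1 and Ndufb7 are shown because they rose in both genotypes, and Sdhd and Sdha because they encode 2 subunits of the same complex that differed in their calls.
Uqcr10, chr11:4704345-4704504 (- strand): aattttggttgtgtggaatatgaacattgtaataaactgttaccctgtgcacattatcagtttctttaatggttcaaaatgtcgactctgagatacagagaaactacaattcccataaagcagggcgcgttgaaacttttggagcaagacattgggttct
Cox7a1, chr7:30184011-30184170 (+ strand): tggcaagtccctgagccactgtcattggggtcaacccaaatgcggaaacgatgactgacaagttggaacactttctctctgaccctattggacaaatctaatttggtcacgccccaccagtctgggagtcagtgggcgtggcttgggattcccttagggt
Ndufb7, chr8:83566598-83566757 (+ strand): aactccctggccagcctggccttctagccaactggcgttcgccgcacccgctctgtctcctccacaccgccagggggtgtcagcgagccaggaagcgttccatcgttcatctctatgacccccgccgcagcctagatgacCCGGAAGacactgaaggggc
Sdhd, chr9:50603850-50604009 (- strand): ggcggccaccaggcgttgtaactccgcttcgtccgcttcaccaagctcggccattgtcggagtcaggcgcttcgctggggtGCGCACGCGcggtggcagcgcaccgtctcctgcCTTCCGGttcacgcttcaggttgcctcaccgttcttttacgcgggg
Sdha, chr13:74350241-74350400 (- strand): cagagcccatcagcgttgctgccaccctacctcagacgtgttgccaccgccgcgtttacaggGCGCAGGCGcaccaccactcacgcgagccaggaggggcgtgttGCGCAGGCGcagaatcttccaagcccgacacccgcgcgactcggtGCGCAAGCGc
No motif letters occurred in this window of Uqcr10 or Cox7a1, 1 ETS-type match in that of Ndufb7, and 1 NRF1-type and 1 ETS-type match in that of Sdhd. The window of Sdha, with a log2 fold change of -0.07 in KO and 0.01 in WT in the authors' deposited tables, held 3 NRF1-type matches. A match is a string of letters and was not tested as a binding site.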

How the data were processed

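Libraries were made from TRIzol-extracted liver RNA with a TruSeq kit, per the labels' protocols; strand use is not given in the sources. The submitters' processing notes name Cuffdiff, Cufflinks 2.2.1, Bowtie2 2.2.3, TopHat2 2.0.12, Trim Galore 0.4.0 and bcl2fastq 1.8.4, and the builds mm10 and hg19. The authors deposited 3 full tables with pooled FPKM per group, a log2 fold change, a test statistic (a score), a p-value and a q-value. Columns of single samples without a map numbered 0. Each table was scaled separately: FPKM of the IUB288 groups were 1.05 (KO) and 1.08 (WT) times as high in the treatment tables as in the genotype table.

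Calls are the authors' (status OK, q under 0.05). Standard errors are the fold change over the statistic, with a median over the respiratory chain of 0.36 in KO and 0.40 in WT. Differences between KO and WT effects were tested with these errors by a two-sided normal test, adjusted by Benjamini-Hochberg over all loci. Spliced lengths are those of GENCODE M21 principal transcripts. Named are all called loci, the 4 highest and 4 lowest fold changes per comparison, the most abundant locus of each complex, core subunits, isoform sets, the 3 smallest p-values of the difference, fixed regulators and some called list genes (most called marker genes are given as counts only); other loci named were chosen after their values were seen, and 1 core subunit that the rule names is not reported here by itself. The members and lists were chosen with earlier results of these data known. The length comparison (its measure and classes changed once), subunit classes, motifs, promoters shown and a tolerance of 0.1 for a median were set after values were seen. Nothing says whether the 2 samples of a group were handled apart, so p-values speak for these samples only. They rest on the error estimates of the authors' test. In WT the implied errors of the respiratory chain had a lowest value of 0.39, a median of 0.40 and a highest value of 4.44. With pooled values these errors cannot be compared with the spread between mice. Python 3.11.15 was used with scipy 1.17.1, pandas 2.3.3 and numpy 2.4.6.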

Additional observations from a re-analysis of the deposited data

How the results depend on the processing

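The counts of called loci depended on the test. At q under 0.01 the authors' deposited tables call 2 respiratory chain loci in KO, in place of 7, and 6 in WT, in place of 14. Normal p-values computed from the deposited statistic and adjusted over all loci call 0 in KO and 1 in WT. At an unadjusted p under 0.05 the authors' deposited tables have 28 in KO and 42 in WT, without a share of all loci beside them. The cause of this was not tested. With 1000 like loci in place of 200, the median excess over loci of like FPKM in WT was 0.3089 in place of 0.16, and the cause was not tested. Of 54 values under an alternative setting, the 5 just given moved past the tolerance, which is 0.1 on the log2 scale for a median and 1.5 times for a count, and 49 stayed within it. That tolerance is wide for the smaller excesses: with loci alike in FPKM and length the excess in WT was 0.07533, or 0.06876 by the longest transcript, in place of 0.16, and that for KO over WT under IUB288 was -0.01939 in place of -0.08. Under all alternatives run the median log2 fold change stayed between 0.4535 and 0.4658 in KO, between 0.5929 and 0.6584 in WT, and between -0.2747 and -0.2537 for KO over WT under IUB288. The excess over like loci stayed between 0.2298 and 0.3302 in KO and between 0.06876 and 0.3089 in WT. Leaving out the 13 loci that share their coordinates with another locus, a choice made after seeing the data, changed no count. Single mice could not be left out, since the tables hold pooled values. No paired analysis was possible because the columns carry no replicate numbers. Depth is unknown, and 5 loci had errors above 0.8 on the log2 scale in each table.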
